A study of Mus musculus with 1 sample.

Results

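The genes described here are the mouse globin genes, adult and embryonic, which were taken by name from a list of 8 genes. The list holds 3 alpha-like genes (*Hba-a1*, *Hba-a2* and *Hba-x*), 4 beta-like genes (*Hbb-bs*, *Hbb-bt*, *Hbb-bh1* and *Hbb-y*) and *Ahsp*. The 7 globin genes were matched among the 54532 genes of the deposited table, and *Ahsp* was not analysed here. The 7 were compared as alpha against beta, as adult against embryonic and as near-identical copies.

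RNA was sequenced from c-kit+ BM (bone marrow) cells that were sorted by FACS from mice of a study on *Gadd45g* deficiency and MPNs (myeloproliferative neoplasms). The data are 1 library, that of the Ctrl group, which is wild type on the C57BL/6 strain and was given no treatment in the labels. The sample's description adds a gate for cells that are lineage-negative and Sca-1-negative. The number of mice, their age and whether Ctrl mice carried Cre or a floxed allele are not given in the sources used here. The library of *Gadd45g*-deficient mice was not analysed here, so no difference between groups, no replicate error and no test is given.

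Hemoglobin is assembled in red cell precursors from a pair of alpha-like and a pair of beta-like chains, each holding a heme. The alpha-like and the beta-like genes sit in separate clusters, in which the embryonic genes come first along transcription and the adult genes later. The embryonic genes serve the first red cells of the yolk sac and are silenced as the fetal liver, and then the bone marrow, take over with the adult genes. *Hba-x* encodes zeta globin, *Hbb-y* and *Hbb-bh1* encode the embryonic beta-like chains epsilon-y and beta-h1, and the other 4 genes encode the adult chains.

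The adult genes of each kind are copies of each other, and within the coding sequence the split of reads between them rests on 1 base. The coding sequences of *Hba-a1* and *Hba-a2*, of 426 nucleotides without the stop codon, were 99.8% identical and differed by 1 substitution, C381T. Those of *Hbb-bs* and *Hbb-bt*, of 441 nucleotides, also differed by 1 substitution, C417T. Positions are counted from 1 at the first base of the start codon, with the base of *Hba-a1* or *Hbb-bs* first and that of *Hba-a2* or *Hbb-bt* last. C381T falls on base 3 of codon 127 and C417T on base 3 of codon 139, both in exon 3, and neither changes the encoded protein. The 41 bases around each difference are shown because within the coding sequence only reads across such a base can tell the copies apart. The sequences are from GENCODE M21 transcripts on GRCm38, 5′ to 3′ on the coding strand, and the capital marks the differing base.
*Hba-a1*, chr11:32284323-32284363, forward strand: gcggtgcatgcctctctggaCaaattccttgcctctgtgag
*Hba-a2*, chr11:32297140-32297180, forward strand: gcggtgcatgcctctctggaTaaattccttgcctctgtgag
*Hbb-bs*, chr7:103826672-103826712, reverse strand: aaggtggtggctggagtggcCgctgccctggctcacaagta
*Hbb-bt*, chr7:103812663-103812703, reverse strand: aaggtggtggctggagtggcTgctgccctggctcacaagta

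Levels are in FPKM, fragments on a gene corrected for exon length and for sequencing depth. In the deposited values, FPKM times gene length was a whole multiple of 1 common step for all 6 globin genes above 0, and these multiples are given as recovered fragments. The 95% Wilson intervals come from those fragments and cover counting error only.

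The marker genes go against the label in part. Among all genes in the table, 22.2% were at 1 FPKM or more, and the median of those above 0 was 1.77 FPKM. The 9 markers of maturing red cells were all at 1 FPKM or more. Their median was 371 FPKM, *Alas2* was the highest at 1189 FPKM, and together they held 1.06% of the summed FPKM. The 6 markers of early erythroid progenitors had a median of 95.5 FPKM. Of the 6 stem and progenitor markers 5 reached 1 FPKM, with a median of 6.02, and *Kit*, the gene of the sorted receptor, had 7.17 FPKM. The 7 markers of mature neutrophils had a median of 3872 FPKM and held 12.4% of the summed FPKM, and the B cell, T cell, macrophage and megakaryocyte markers all reached 1 FPKM, with medians of 85.3, 5.02, 48.8 and 18.2. None of these markers was listed at 0, beside 33210 of the 54532 genes of the table. The label names c-kit+, lineage-negative cells, and the part of mature cells in the globin levels was not tested.

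The adult genes were among the most abundant of the library, and the embryonic genes were at or near 0. At 1 FPKM or more were 4 of the 7 genes, the 4 adult ones, beside 22.2% of all genes in the table.

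*Hba-a1* (ENSMUSG00000069919), an adult alpha gene of 3 exons at chr11:32283511-32284465, forward strand, had 25466 FPKM from 326382 fragments (95% interval, 25379 to 25552). It ranked 2 among all genes, below *S100a9*, a calcium-binding protein of neutrophils, at 26677 FPKM. *Hba-a2* (ENSMUSG00000069917), the other adult alpha gene, lies at chr11:32296489-32297298 on the same strand and had 2089.6 FPKM from 21999 fragments (2062 to 2117), which ranked 16. The genes next to *Hba-a2* in rank were *Tmsb4x*, which encodes an actin-binding peptide, at 2414 FPKM and *Ltf*, the neutrophil granule protein lactoferrin, at 2069 FPKM.

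*Hbb-bs* (ENSMUSG00000052305), an adult beta gene at chr7:103826534-103828096, reverse strand, had 14289 FPKM from 173213 fragments (14222 to 14356) and ranked 3. *Hbb-bt* (ENSMUSG00000073940), at chr7:103812524-103813996, reverse strand, had 5747 FPKM from 63769 fragments (5703 to 5792) and ranked 8. The order of levels was therefore *Hba-a1*, *Hbb-bs*, *Hbb-bt*, *Hba-a2*, and the counting intervals of these 4 genes did not overlap. The order rests on how fragments were split between the copies, and that of *Hbb-bt* and *Hba-a2* turned on 1 of the other scales.

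*Hbb-y* (ENSMUSG00000052187), at chr7:103851749-103853216, reverse strand, had 0.601 FPKM from 6 fragments (0.275 to 1.31). *Hba-x* (ENSMUSG00000055609), at chr11:32276400-32278116, forward strand, had 0.135 FPKM from 2 fragments (0.0370 to 0.493). *Hbb-bh1* (ENSMUSG00000052217), at chr7:103841637-103843164, reverse strand, was listed at 0, which allows up to 0.310 FPKM at the limit of 3 fragments. The ranks of *Hbb-y* and *Hba-x* were 13402 and 17178. The counting intervals of these 2 genes overlapped, and the limit for *Hbb-bh1* lies inside both.

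**Figure D1:**
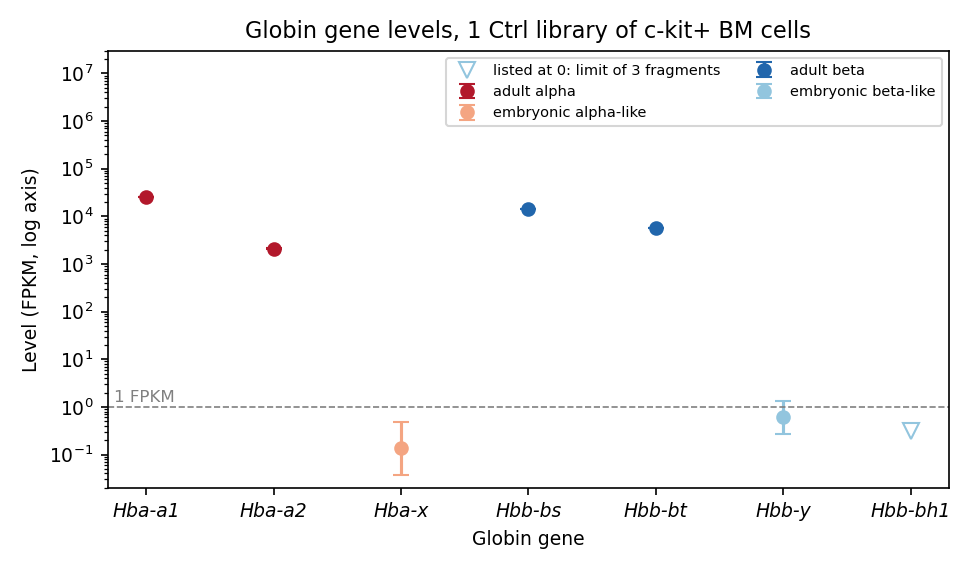
Level of each globin gene in FPKM (log axis) in the Ctrl library. Points are the deposited values with bars for the 95% Wilson interval of counting error, the open triangle is the limit of 3 fragments for *Hbb-bh1*, which is listed at 0, and the dashed line is 1 FPKM; the 4 adult genes lie between 2089.6 and 25466 FPKM and the points of the embryonic genes below the line, with the upper bar of *Hbb-y* at 1.31.

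**Figure D2:**
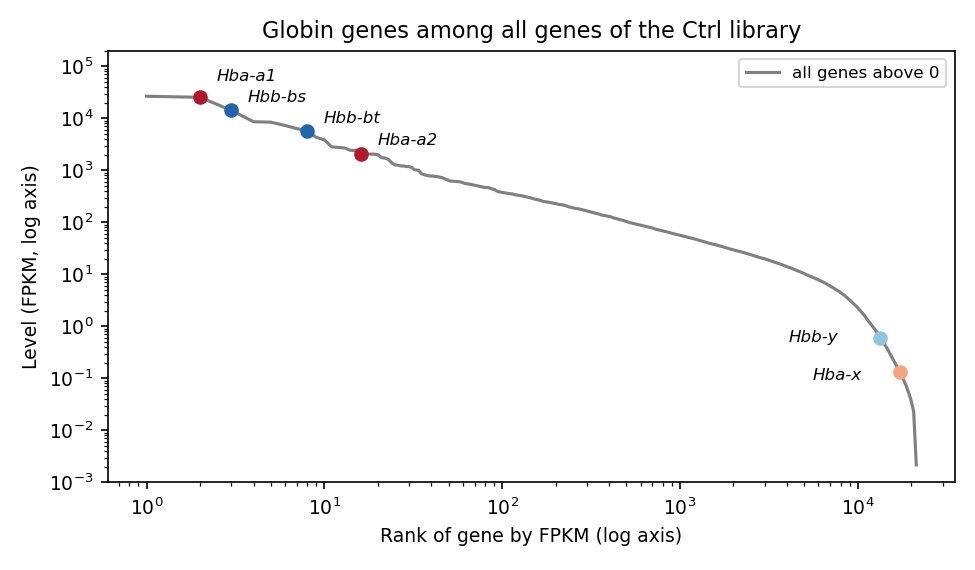
FPKM of every gene above 0 against its rank in the Ctrl library, both on log axes. The adult globin genes, in red for alpha and blue for beta, fall at ranks 2, 3, 8 and 16, and *Hbb-y* and *Hba-x*, in the lighter shades, at ranks 13402 and 17178.

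Adult alpha was above adult beta. The alpha genes summed to 27555 FPKM and the beta genes to 20036 FPKM, a ratio of 1.38 (95% counting interval, 1.368 to 1.382). The interval does not cover reads shared between the copies of a kind, and any loss of such reads may differ between alpha and beta. In fragments, without dividing by length, the sums were 348381 and 236982 and the ratio was 1.47. Adding the embryonic genes to each side left the ratio at 1.38, since alpha-like genes then summed to 27555.5 and beta-like genes to 20036.7 FPKM. Between the leading gene of each kind, *Hba-a1* was 1.78 times *Hbb-bs* in FPKM (1.77 to 1.79). Between the lesser genes the order was the other way, with *Hba-a2* at 0.364 of *Hbb-bt* (0.358 to 0.369). This last order was not stable, since fragments per read position of 50 bases found in no other globin gene, a scale described with the copies, gave a ratio of 1.43.

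Together the 7 globin genes held 11.1% of the library's summed FPKM (11.07 to 11.13), and 3.42% of its recovered fragments, counted over all genes. The interval does not cover reads shared between the adult copies, whose handling is not given. If such reads were left out of the count, these shares are too low. FPKM divides by exon length, which is 613 to 938 nucleotides for these genes. Adult alpha held 6.43% of the summed FPKM and adult beta 4.67%. In a bulk library, fewer cells of a type and less RNA per cell cannot be told apart, so these shares say nothing of how many cells carried globin RNA.

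Adult globin RNA exceeded embryonic globin RNA by more than 4 orders of magnitude. The adult genes summed to 47591 FPKM and the embryonic genes to 0.736 FPKM, a ratio of 64696 with an interval of 32783 to 127676, from 585363 against 8 fragments. The embryonic genes made up 0.00155% of the globin FPKM (0.000783 to 0.00305). If reads shared between the adult copies were left out of the count, the adult sums and the ratios to embryonic genes are too low. For the alpha kind, the ratio of the adult sum to *Hba-x* was 203982 with an interval of 55939 to 743822.5, which is wide because *Hba-x* rests on 2 fragments. For the beta kind, the ratio of the adult sum to *Hbb-y* was 33364 (15291 to 72799). Against *Hbb-bh1*, adult beta was at least 64619.9-fold higher, taken at the limit of 3 fragments. *Hbb-y* was 4.45 times *Hba-x* in FPKM (1.03 to 19.2), a ratio of 6 to 2 fragments.

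The embryonic genes had no copy of a full read in common with the adult ones. Over 50, 100 or 150 bases, every position of the *Hba-x*, *Hbb-y* and *Hbb-bh1* transcripts was found in no other globin gene, a share of 100%. *Hba-x* shared 61.7% of its coding bases with *Hba-a1*, from which it differed at 163 positions. *Hbb-y* and *Hbb-bh1* were 76.4% identical to each other, and to *Hbb-bs* they were 74.4% and 73.9% identical. The adult alpha and beta genes were further apart, with 53.8% identity between *Hba-a1* and *Hbb-bs*. Embryonic and adult genes also differed in base composition among the beta kind, where coding GC content was 49.9% in *Hbb-y* and *Hbb-bh1*, 56.5% in *Hbb-bs* and 56.2% in *Hbb-bt*.

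Within each kind 1 adult copy led. *Hba-a1* was 12.2 times *Hba-a2* in FPKM (12.0 to 12.4) and held 92.4% of adult alpha (92.3 to 92.5). *Hbb-bs* was 2.49 times *Hbb-bt* (2.46 to 2.51) and held 71.3% of adult beta (71.1 to 71.5). These intervals do not cover the assignment of shared reads. Whether reads that map to several places were counted, dropped or split is not given in the sources used here, and the read length is not given either. By default featureCounts, which the submitters' processing notes name, leaves out reads with several mapping places.

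The copies share long unbroken stretches. *Hba-a1* and *Hba-a2* had an identical run of 415 nucleotides between transcripts of 699 and 554, and *Hbb-bs* and *Hbb-bt* one of 430 nucleotides between transcripts of 628 and 703. The alpha transcripts of the annotation cover 538 bases in common, with 1 difference. The *Hba-a1* transcript starts 161 bases earlier, and all 161 bases match the genome just before the *Hba-a2* start, while the *Hba-a2* transcript runs 16 bases further at its end. The alpha pair therefore differs in the annotation mainly by where the transcripts are said to begin and end.

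Read positions found in no other globin gene were counted for reads of 50, 100 and 150 bases. *Hba-a2* had the fewest, with 13.1%, 25.5% and 34.3% of its positions, and *Hba-a1* had 32.5%, 43.5% and 51.6%. *Hbb-bs* had 34.2%, 37.4% and 41.3%, and *Hbb-bt* had 41.7%, 45.2% and 49.3%. When fragments were divided by these positions in place of gene length, the *Hba-a1* to *Hba-a2* ratio was 4.64, 6.59 and 7.26, and the *Hbb-bs* to *Hbb-bt* ratio was 3.75 at all 3 lengths. The alpha values rest on the annotated starts of *Hba-a1* and *Hba-a2*. At 50 and 100 bases, the unshared positions of *Hba-a1* beyond those over the differing base are the 161 at the beginning of its GENCODE transcript. The same 161 bases also lie in the genome before *Hba-a2*. By the RefSeq start of *Hba-a1*, used below for the promoters, they lie before the gene. The exon length of 812 nucleotides behind the FPKM of *Hba-a1* holds them too. The undivided fragments gave 14.8. The leading copy was the same on every scale, and the size of its lead was not. Adult alpha to adult beta was 1.70, 1.30 and 1.18 on the same scales and stayed above 1. These values use the same *Hba-a1* positions and so rest on the annotated starts of the 2 alpha genes too.

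**Figure D3:**
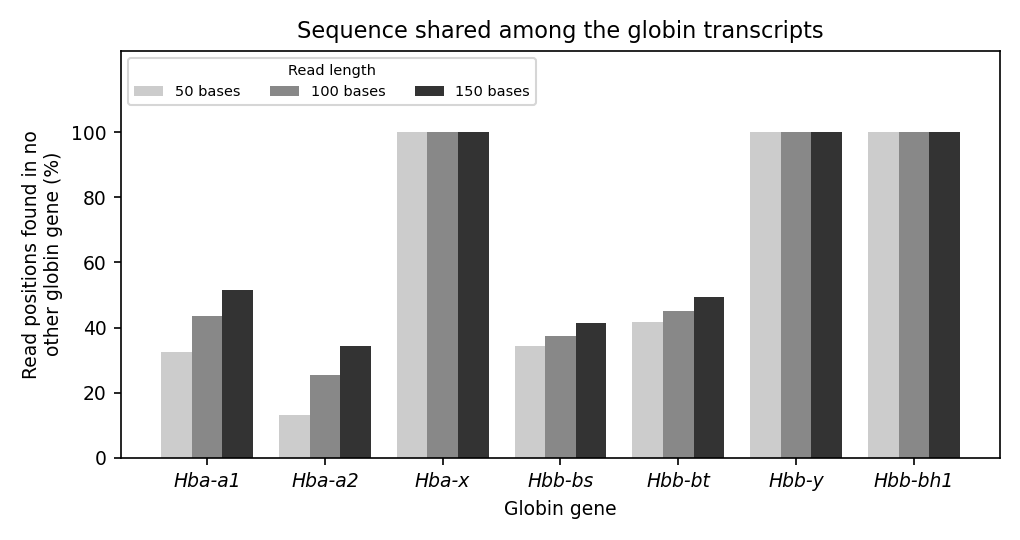
Share of read positions (%) of each globin transcript whose sequence is found in no other globin gene, for reads of 50, 100 and 150 bases. The embryonic genes reach 100%, and the adult copies lie between 13.1% and 51.6%.

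**Figure D4:**
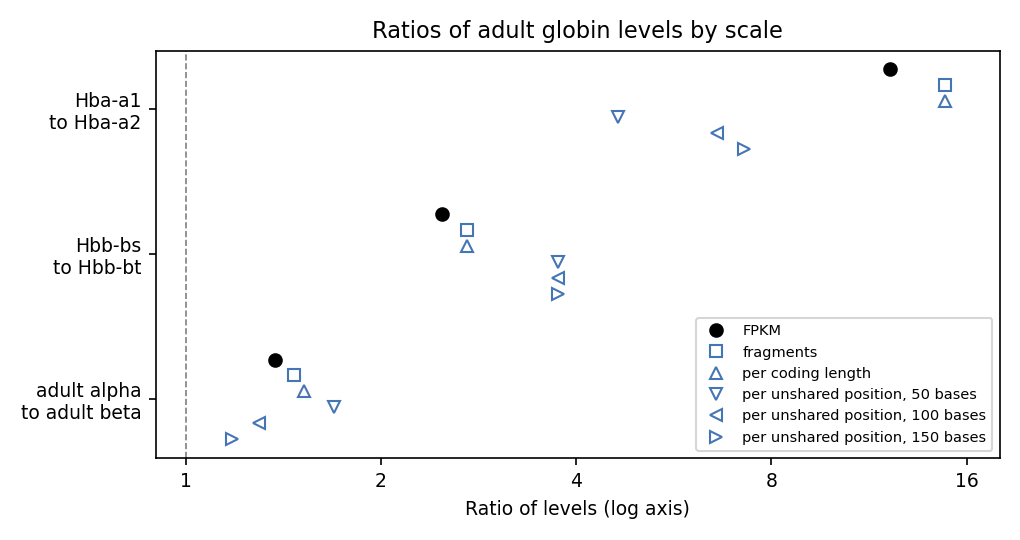
Ratios of *Hba-a1* to *Hba-a2*, of *Hbb-bs* to *Hbb-bt* and of adult alpha to adult beta (log axis), in FPKM (filled) and on other scales (open), with a dashed line at 1. All the points of these 3 ratios lie above 1, from 1.18 for alpha to beta to 14.8 for *Hba-a1* to *Hba-a2*.

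Along both clusters the levels did not simply rise with distance from the embryonic end. On chromosome 11, *Hba-x* comes first, *Hba-a1* starts 7.11 kb after it and *Hba-a2* 20.1 kb after it. The theta genes, alpha-like genes of unclear function, follow each adult copy, with *Hbq1b* at 10.6 kb and *Hbq1a* at 23.7 kb. *Hbq1b* had 58.4 FPKM from 668 fragments (54.1 to 63.0) and *Hbq1a* 9.86 FPKM from 94 fragments (8.06 to 12.1). So the theta gene behind the higher adult copy was the higher of the pair, by 5.92 times (4.77 to 7.34). The coding sequences of the theta pair were 93.8% identical, and 73.4% of *Hbq1b* and 75.6% of *Hbq1a* positions were found in no other globin gene at 100 bases. *Hba-a1* was 436 times *Hbq1b* (404 to 471), and *Hbq1b* was 432 times *Hba-x* (118 to 1578).

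On chromosome 7 the order along transcription is *Hbb-y*, *Hbb-bh1* at 10.1 kb, *Hbb-bs* at 25.1 kb and *Hbb-bt* at 39.2 kb. *Hbb-bh2*, a further beta-like gene at 12.7 kb, had 0.227 FPKM from 2 fragments (0.0623 to 0.828), and the pseudogenes *Hbb-bh0* and *Hbb-bh3* were listed at 0. The level therefore went from near 0 over the first 5 genes to 14289 FPKM at *Hbb-bs*, and it was lower again at *Hbb-bt*.

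**Figure D5:**
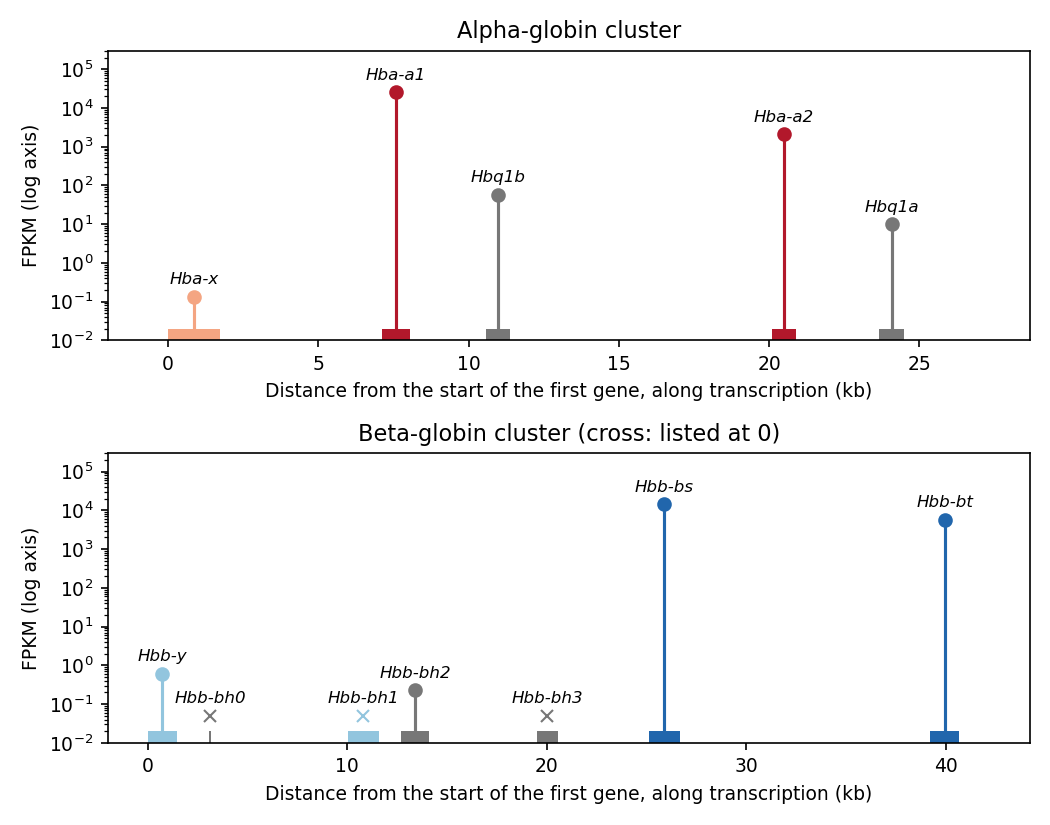
FPKM (log axis) of each gene of the alpha and beta clusters against the distance of its start from that of the first gene, in kb along transcription. Bars on the axis span the genes, grey marks genes outside the list of 7, and crosses mark genes listed at 0, drawn at an arbitrary height; the adult genes stand at 2089.6 FPKM or more.

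The genes around the clusters were all below the adult globin genes. Within 100 kb of the alpha cluster lie 7 genes, of which 4 reached 1 FPKM, beside 22.2% of all genes in the table. The highest was *Snrnp25*, which encodes a protein of the minor spliceosome, with 25.1 FPKM (22.8 to 27.7). *Nprl3*, whose introns hold the main alpha-globin enhancers, lies 8.69 kb before the cluster and had 4.82 FPKM (4.44 to 5.23). Around the beta cluster, 14 of 16 genes were listed at 0, beside 33210 of the 54532 genes of the table. Only 1 of the 16 reached 1 FPKM, the processed pseudogene *Dnajc19-ps*, with 2.35 FPKM (1.37 to 4.02) from 13 fragments. Of these 16, 13 were olfactory receptor genes, the family in which the beta cluster is embedded, and their highest level was 0.0224 FPKM, from 1 fragment in *Olfr69*.

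Globins outside the clusters were low or at 0. *Cygb*, cytoglobin, had 0.190 FPKM from 7 fragments (0.0922 to 0.393). *Mb*, the myoglobin of muscle, and *Ngb*, the neuroglobin of neurons, were listed at 0, with limits of 0.127 and 0.110 FPKM at 3 fragments. Of the 6 other globin genes, these 3 with *Hbb-bh2* and the theta pair, 2 reached 1 FPKM, beside 22.2% of all genes.

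The promoters of the adult genes carried the letters of the classical globin promoter boxes. Sequence of 250 bases before the start was taken from RefSeq on GRCm38.p6, where 6 of the 7 genes have an entry and *Hbb-bh1* has none. Both strands were searched for TATAA, the core of a TATA box, for CCAAT, the box of that name, for CACCC, which Klf1 binds, and for GATAA, which Gata1 binds. TATAA and GATAA share their last 4 letters and cannot match at the same position. All 4 motifs were present in *Hba-a1*, *Hba-a2*, *Hbb-bs* and *Hbb-bt*, and 0.968% of all RefSeq promoter entries hold all 4. Singly they are common, at 22.8% of entries for TATAA, 33.8% for the CCAAT box, 52.0% for the CACCC box and 22.6% for GATAA. *Hba-x* held no exact CCAAT, and *Hbb-y* held no exact TATAA. Other spellings of the boxes were not searched for, so a variant box may be present. The adult alpha promoters are copies of each other, with an identical run of 247 of 250 bases, and so are not separate instances. The GENCODE transcript of *Hba-a1* begins before its RefSeq start, so the TATAA at −27, CACCC box at −60 and CCAAT box at −88 lie inside that transcript. The promoters of *Hbb-bs* and *Hbb-bt* were 67.5% identical.

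The promoters of *Hbb-bs* and *Hbb-y* are shown as an adult and an embryonic example of the beta kind, at 14289 and 0.601 FPKM. Capitals mark the motifs, and a GATAA on the other strand reads as its reverse complement. In *Hbb-bs* the TATAA began at −29 and the CCAAT box at −76, and in *Hbb-y* the CCAAT box began at −83, the CACCC box at −111 and the GATAA, on the other strand, at −162. The *Hbb-bs* stretch runs from 83 bases to 1 base before the RefSeq start and lies in an intron of the longer GENCODE gene, and the CACCC box at −90 and the GATAA at −209 of this promoter lie outside it. The *Hbb-y* stretch runs from 250 to 10 bases before its RefSeq start.
*Hbb-bs*, chr7:103827929-103828011, reverse strand: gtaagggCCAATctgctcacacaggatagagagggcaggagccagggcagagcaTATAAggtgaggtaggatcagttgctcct
*Hbb-y*, chr7:103853217-103853457, reverse strand: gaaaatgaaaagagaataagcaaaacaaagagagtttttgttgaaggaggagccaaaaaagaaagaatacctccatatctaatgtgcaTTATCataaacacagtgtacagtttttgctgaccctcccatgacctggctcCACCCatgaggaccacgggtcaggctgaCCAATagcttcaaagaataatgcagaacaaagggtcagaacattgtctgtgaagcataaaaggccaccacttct
A motif match is a description of letters and does not show a bound site.

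RNA of the factors that act on globin genes was detected. All 7 activators of the list were at 1 FPKM or more, beside 22.2% of all genes in the table. The levels of these activators ran from 45.6 to 152 FPKM around a median of 85.2, against a median of 1.77 over the genes above 0. *Klf1*, the erythroid factor that acts on the CACCC box of adult beta, had 141 FPKM (136 to 146), *Gata1*, the erythroid GATA factor, had 50.3 FPKM (48.1 to 52.5) and *Lmo2*, a bridging protein of the same complex, had 152 FPKM. The 4 repressors of embryonic globin had a median of 14.0 FPKM. *Zbtb7a* was the highest of them at 25.5 FPKM (24.6 to 26.5), and *Bcl11a*, the repressor best known for silencing fetal globin in humans, was the lowest at 4.30 FPKM (4.03 to 4.59). *Sox6*, a partner of *Bcl11a*, had 11.6 FPKM and *Myb* 16.5 FPKM. *Gata2*, the GATA factor of earlier progenitors, had 6.82 FPKM (6.29 to 7.40).

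The 8 enzymes of heme synthesis were all at 1 FPKM or more, beside 22.2% of all genes in the table. The median of the enzymes was 108 FPKM. *Alas2*, the erythroid enzyme of the first step, led with 1189 FPKM (1178 to 1200), and *Fech*, which inserts the iron, followed with 340.02 FPKM. *Uros* was the lowest at 37.6 FPKM. *Slc25a37*, the mitochondrial iron importer, had 313 FPKM, and *Tfrc*, the transferrin receptor, had 150 FPKM. *Hba-a1* stood above every gene of this pathway in FPKM.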

How the data were processed

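Sorted c-kit+ BM cells gave 1 RNA library, read by the authors on an Illumina HiSeq sequencer. The authors deposited FPKM values for its 54532 genes. The submitters' processing notes name HISAT2 2.0.5, featureCounts 1.5.0-p3 and mm10. The annotation, strandedness, read length and handling of multi-mapping reads are not given in the sources used here. Gene lengths, coordinates and transcripts were taken from GENCODE M21 on GRCm38 (54495 genes matched). FPKM times exon length was a whole multiple of 1 step, within 0.01, for 96.4% of genes above 0. The multiples, rounded for the other genes, were read as fragments. They summed to 17113323, of which 15899824 lie on genes with a whole multiple, and the step itself implies a total of 15783891. The recovery was tested on simulated data. With 1 library, ratios and shares carry 95% Wilson intervals of counting error only, and a gene at 0 has a limit of 3 fragments. Members and lists were chosen with earlier results of these data known. Genes were named if they were listed globins, other globins, genes of the regulator, heme and marker lists, genes next in rank, or genes within 100 kb of a cluster. The level of 1 marker gene is not reported here. Alternatives were gene length, unshared read positions, totals and detection minimums. Alternatives with 100-base reads over the differing base, for ratios between single alpha and beta genes and for other fragment totals were chosen after seeing the data. Python 3.11.15, numpy 2.4.6, pandas 2.3.3, matplotlib 3.10.9 and biopython 1.88 were used.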

Additional observations from a re-analysis of the deposited data

How the results depend on the processing

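Adult alpha to adult beta, 1.38 in FPKM, was 1.47 in fragments, 1.52 per coding length, and 1.70, 1.30 and 1.18 per unshared read position of 50, 100 and 150 bases. *Hba-a1* to *Hba-a2*, 12.2 in FPKM, was 14.8 in fragments and per coding length, and 4.64, 6.59 and 7.26 per unshared position. *Hbb-bs* to *Hbb-bt*, 2.49 in FPKM, was 2.72 in fragments and per coding length, and 3.75 per unshared position at each read length. Per 100-base read over the differing base, an alternative chosen after seeing the data, alpha to beta was 1.47 and *Hba-a1* to *Hba-a2* 14.8, which repeats the undivided fragments by construction, since each gene has 100 such positions. Under the same scales, also added after seeing the data, *Hba-a1* to *Hbb-bs* ran from 1.31 to 1.95, and *Hba-a2* to *Hbb-bt*, 0.364 in FPKM, ran from 0.345 to 0.812 except at 50 bases, where it turned to 1.43. No other ratio crossed 1. These shifts follow from the divisor alone, since the fragments were the same. Every value per unshared position that includes *Hba-a1* also rests on the annotated starts of *Hba-a1* and *Hba-a2*. The globin share of the library, 11.1% of FPKM, was 3.42% of fragments over all genes, 3.68% over genes with a whole multiple and 3.71% over the total the step implies (both added after seeing the data), 11.6% of FPKM without mitochondrial genes and 12.2% over protein-coding genes. The embryonic share and the number of detected genes kept their size, apart from 6 in place of 4 genes at 0.1 FPKM. At 0.1 FPKM at least 17457 and fewer than 18048 of the 54532 genes of the table also passed. The genes added there, *Hbb-y* and *Hba-x*, rest on 6 and 2 fragments. The alternatives for *Ahsp* were not run. Depth limits the embryonic genes, which rest on 8 fragments. No paired analysis was possible because there is 1 library.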

Other observations

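Genes that handle free hemoglobin and heme lie outside the comparisons above. They were at 1 FPKM or more in 4 of 5 cases, beside 22.2% of all genes. *Hp*, haptoglobin, which binds free hemoglobin, had 624 FPKM (95% Wilson interval, 615 to 634), *Hmox1*, the heme oxygenase, 64.8 FPKM (61.9 to 67.9), *Eif2ak1*, the heme-regulated kinase that limits globin translation, 54.8 FPKM (53.3 to 56.4), and *Cd163*, the macrophage receptor for the haptoglobin complex, 5.60 FPKM (5.13 to 6.13). *Hpx*, hemopexin, had 0.0845 FPKM from 2 fragments (0.0232 to 0.308).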
